A study of Homo sapiens with 9 samples.

Results

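The S100 genes encode small calcium-binding proteins that work mostly as dimers. The 10 genes described here, *S100A2*, *S100A3*, *S100A4*, *S100A6*, *S100A10*, *S100A11*, *S100A13*, *S100A14*, *S100A16* and *S100P*, were taken by name from the 22465 genes that carried a single symbol on the array. All 10 had 1 probe set each. They were compared across 3 cultures of MDA-MB-231, a human triple negative breast cancer cell line, on 9 Affymetrix Human Transcriptome Array 2.0 arrays.

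Cells of the first culture carried a short hairpin RNA (shRNA) against *ELOVL5*, which encodes an elongase of polyunsaturated fatty acids (*ELOVL5* knockdown, n = 3). The second culture carried an shRNA against *IGFBP6*, whose product is secreted and holds insulin-like growth factors in a complex (*IGFBP6* knockdown, n = 3). The control culture, LUC, carried an shRNA against firefly luciferase, a gene human cells do not have (n = 3). The hairpins came in the same lentiviral vector, so every culture, controls included, held the vector and had been selected with puromycin. Each group was a single culture made with 1 hairpin, and its 3 arrays were separate RNA samples of that culture. The p-values below therefore measure the spread between RNA samples and not between independently made cultures or hairpins.

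An S100 protein folds into a pair of EF-hands, the helix-loop-helix motif that holds a calcium ion, and calcium uncovers a surface that grips partner proteins such as annexins, myosin and p53. Most S100 genes lie in a cluster on the long arm of chromosome 1, within a region that also holds the genes of skin barrier formation, whereas *S100P* lies on chromosome 4. In breast cancer *S100A4*, also called metastasin, is known for its part in motility and spread, and *S100A10* for helping plasminogen activation at the cell surface.

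To show the DNA next to the genes the results turn on, the 250 bases before the RefSeq start (GRCh38.p14) are given for 4 genes that lie close together and were lower after the knockdown of *IGFBP6*, and for *S100A16*, their close neighbour that was not lower. For *S100A2* and *S100A16*, which have more than 1 listed start, the first is shown. Capitals mark the AP-1 motif TGANTCA, the E-box CANNTG and the TATA box letters TATAAA, searched on both strands, with no overlap between motifs in these windows.
S100A6, chr1:153535992-153536241, minus strand: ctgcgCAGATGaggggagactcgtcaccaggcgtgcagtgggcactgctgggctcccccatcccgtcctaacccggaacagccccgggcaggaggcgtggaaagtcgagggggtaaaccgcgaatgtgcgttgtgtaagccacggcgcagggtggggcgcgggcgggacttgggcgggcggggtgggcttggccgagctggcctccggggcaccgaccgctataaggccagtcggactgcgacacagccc
S100A4, chr1:153545807-153546056, minus strand: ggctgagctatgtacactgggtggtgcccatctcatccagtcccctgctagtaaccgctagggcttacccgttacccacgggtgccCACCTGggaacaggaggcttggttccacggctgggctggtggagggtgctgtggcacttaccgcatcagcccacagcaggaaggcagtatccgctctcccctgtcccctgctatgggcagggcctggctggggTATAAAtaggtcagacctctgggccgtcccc
S100A3, chr1:153549259-153549508, minus strand: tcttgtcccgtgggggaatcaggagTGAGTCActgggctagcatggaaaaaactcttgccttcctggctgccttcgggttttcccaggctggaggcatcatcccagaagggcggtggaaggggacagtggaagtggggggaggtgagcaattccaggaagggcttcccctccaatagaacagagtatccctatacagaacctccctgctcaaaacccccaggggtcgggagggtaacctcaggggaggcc
S100A2, chr1:153565845-153566094, minus strand: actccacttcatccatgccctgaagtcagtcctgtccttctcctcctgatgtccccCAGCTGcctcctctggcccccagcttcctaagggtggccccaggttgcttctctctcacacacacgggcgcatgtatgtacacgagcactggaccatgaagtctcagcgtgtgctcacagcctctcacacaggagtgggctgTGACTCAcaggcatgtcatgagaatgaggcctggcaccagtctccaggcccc
S100A16, chr1:153613138-153613387, minus strand: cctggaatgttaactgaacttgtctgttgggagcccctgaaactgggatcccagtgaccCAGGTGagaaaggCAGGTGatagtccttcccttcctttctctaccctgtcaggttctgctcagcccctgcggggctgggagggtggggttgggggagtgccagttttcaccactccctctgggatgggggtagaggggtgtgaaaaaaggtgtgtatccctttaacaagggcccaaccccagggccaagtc
All 10 members had an entry in the promoter table, with 14 starts between them. TGANTCA was found in 2 of these 14 windows, 52 bases before the start of *S100A2* and 225 bases before that of *S100A3*, against 6.57% of all 35116 windows in the table. TATAAA was found in 3 of 14 windows, including the one of *S100A4* at 31 bases before the start, against 10.7% of all windows. CANNTG was found in 10 of 14, against 61.8% of all windows. *S100A10* and *S100A11*, which were lower too, held none of the 3 motifs in their windows, while *S100A16* held CANNTG at 191 and 178 bases. A match is a run of letters and not a measured binding site.

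All values are log2 intensities, on which 1 unit is a doubling of the signal. The median over all transcript clusters and arrays was 5.02. *ELOVL5* mRNA fell by 1.66 on the log2 scale in its own knockdown (adjusted p = 8.7e-05), and *IGFBP6* mRNA fell by 0.62 in its own (adjusted p = 0.0018), both by limma. The *IGFBP6* probe set was dim, with means of 5.50 in its knockdown and 6.12 in LUC cells, not far above that median. Arrays of 1 group correlated at 0.990 to 0.998 over all transcript clusters. All 6 mesenchymal markers of this line were expressed, with group means of 11.01 to 15.70, while the receptor genes *ESR1* and *PGR* had group means of 4.05 to 4.70. Of the 7 luminal markers, 3 were over 6 in LUC cells. *FOXA1*, a luminal transcription factor gene, rose by 0.75 in *ELOVL5* knockdown cells (adjusted p = 0.023) and by 2.38 in *IGFBP6* knockdown cells (adjusted p = 1.0e-06), where *GATA3* (-0.76) and *KRT19* (-0.70) were called lower. The summed luminal signal was 10.33 to 10.79 in *IGFBP6* knockdown cells, against 10.90 to 11.09 in LUC cells. The summed mesenchymal signal was 16.96 to 17.06 in *IGFBP6* knockdown cells, below the 17.27 to 17.40 of LUC cells, with 4 of the 6 markers called lower. The summed signal of 5 immune markers was 14.06 to 14.44 in *IGFBP6* knockdown cells, against 11.88 to 12.36 in LUC cells, and *CD68*, a lysosomal protein gene, carried it, since *PTPRC*, *CD3E*, *CD14* and *LYZ* had group means of 3.99 to 5.28. None of 5 fibroblast markers and 1 of 4 endothelial markers was over 6 in LUC cells. Whether any of these shifts has a part in the S100 values was not tested.

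After the knockdown of *IGFBP6*, 6 of the 10 S100 genes fell and none rose. These were *S100A2*, *S100A3*, *S100A4*, *S100A6*, *S100A10* and *S100A11*, lower by 1.63 to 2.35 times. No S100 gene was called by the same test after the knockdown of *ELOVL5*. Only 1.36% of all genes were called there, so that count is no result about these genes. A gene was called when limma's p, adjusted over all 67528 transcript clusters after Benjamini and Hochberg, was under 0.05 and the change was at least 1.5 times. By this rule 16.3% of all genes were called after the knockdown of *IGFBP6*, 8.49% as lower and 7.82% as higher. These shares include many dim genes, since 11228 of the 22465 genes lay over 6 on at least 3 arrays, against 7 of the 10 members. The median change of the 10 members was -0.73 on the log2 scale, beside -0.01 for all genes. The members were chosen with earlier results of these data known, so the counts and medians set beside all genes are a description only.

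**Figure D1:**
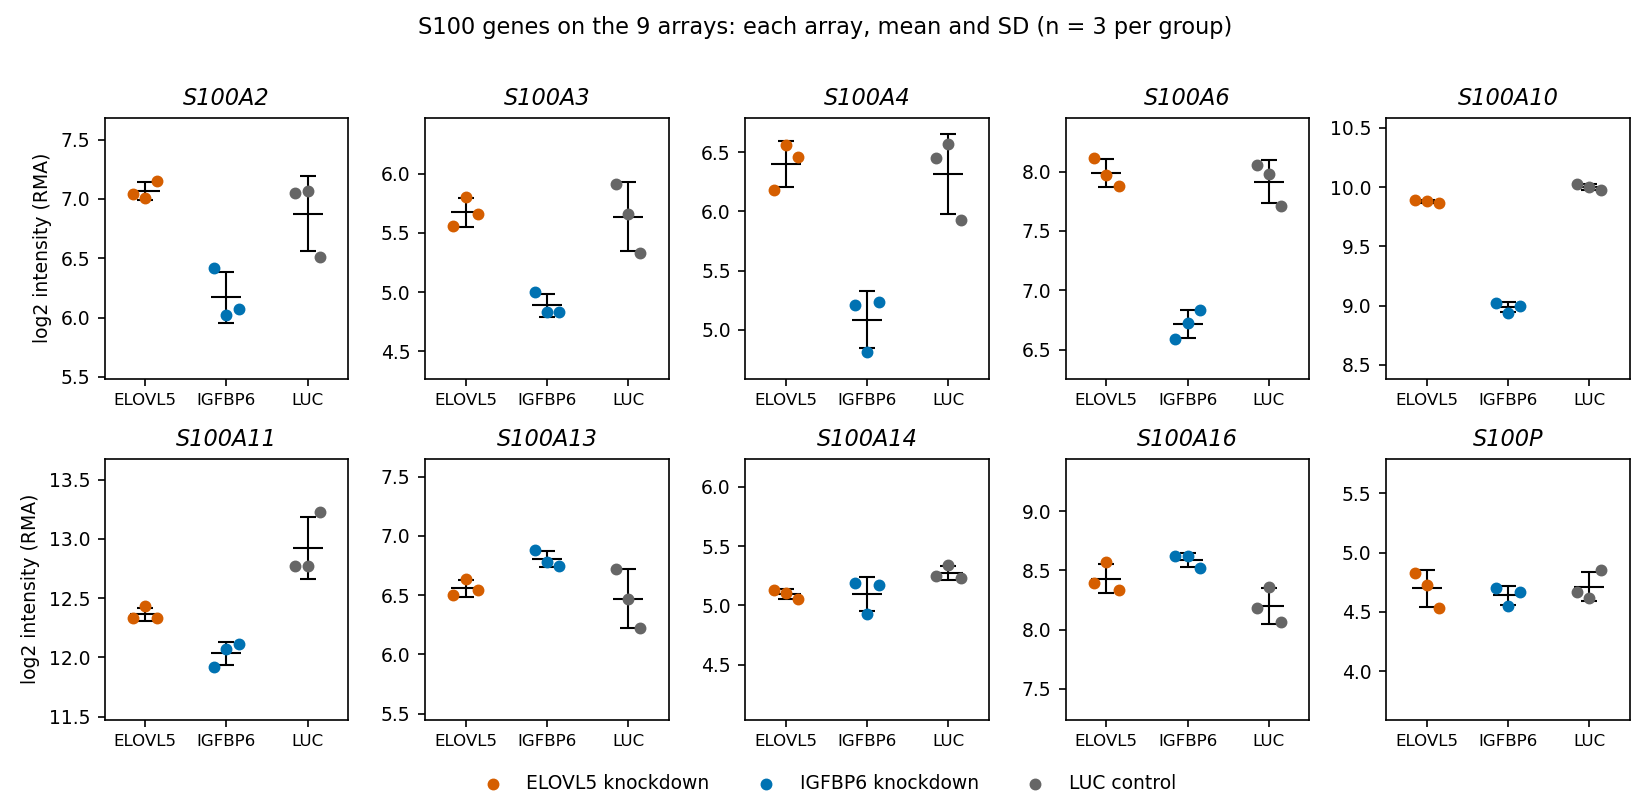
Log2 intensity of each S100 gene on each array (points), with the group mean and SD (n = 3 RNA samples), for *ELOVL5* knockdown, *IGFBP6* knockdown and LUC control cells. Every panel spans the same number of log2 units but has its own range. The *IGFBP6* points of *S100A4* sit between 4.81 and 5.24, all under the LUC points at 5.93 to 6.57, while the *ELOVL5* points mix with the LUC points.

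*S100A4* encodes the metastasis-associated S100 protein that binds the heavy chain of non-muscle myosin. Its log2 intensity was 5.21, 4.81 and 5.24 in *IGFBP6* knockdown cells, against 6.45, 6.57 and 5.93 in LUC cells. All 3 *IGFBP6* arrays were low, and the groups did not overlap, also at LUC replicate 3, the lowest LUC array. The mean was 5.09 ± 0.24 in *IGFBP6* knockdown cells and 6.32 ± 0.34 in LUC cells (SD, n = 3 each). It fell by 1.23 ± 0.18 (SE) on the log2 scale, or 2.35 times (adjusted p = 8.6e-04). The *IGFBP6* values lay close to the median of all probe sets.

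*S100A6*, or calcyclin, encodes a protein found in many dividing cells. It read 6.59, 6.72 and 6.83 in *IGFBP6* knockdown cells, against 8.06, 7.98 and 7.71 in LUC cells. All *IGFBP6* arrays were lower, by more than the spread of either group. It fell by 1.20 ± 0.12 on the log2 scale, or 2.30 times (adjusted p = 5.0e-05).

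*S100A2*, whose protein is nuclear and binds p53, stood at 6.42, 6.02 and 6.07 in *IGFBP6* knockdown cells, against 7.05, 7.07 and 6.51 in LUC cells. The groups did not overlap but came close at *IGFBP6* replicate 1 and LUC replicate 3. It fell by 0.71 ± 0.16, or 1.63 times (adjusted p = 0.011), and this call was lost under 1 alternative besides a higher fold threshold. Without moderation of the variances its adjusted p was 0.059. *S100A3*, a cysteine-rich member known from the hair cuticle, read 5.00, 4.83 and 4.83 in *IGFBP6* knockdown cells, against 5.91, 5.66 and 5.33 in LUC cells. It fell by 0.75 ± 0.14 (adjusted p = 0.0038), and its *IGFBP6* values were under the median of all probe sets. A filter on dim probe sets removed *S100A3* before the test, which left 5 members called.

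*S100A10*, also called p11, has lost calcium binding and pairs with annexin A2 in a complex that takes up plasminogen at the cell surface. It had the tightest replicates of the members. The values were 9.02, 8.94 and 9.0 in *IGFBP6* knockdown cells, against 10.03, 10.00 and 9.98 in LUC cells. It fell by 1.02 ± 0.07, or 2.02 times (adjusted p = 7.8e-06), and the SD within a group was at most 0.04. *S100A11*, whose protein binds annexin A1, read 11.92, 12.07 and 12.11 in *IGFBP6* knockdown cells, against 12.77, 12.77 and 13.23 in LUC cells. It fell by 0.89 ± 0.13, or 1.85 times (adjusted p = 6.9e-04).

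The other 4 members were not called after the knockdown of *IGFBP6*. *S100A16*, a broadly expressed member, read 8.62, 8.62 and 8.52 in *IGFBP6* knockdown cells, against 8.18, 8.36 and 8.06 in LUC cells. Its arrays did not overlap and its adjusted p was 0.027, but the difference of 0.39 ± 0.10 was 1.31 times and so under the fold threshold. *S100A13*, which takes part in the release of FGF1 and interleukin-1 alpha by a route without a signal peptide, read 6.88, 6.78 and 6.75 in *IGFBP6* knockdown cells and 6.72, 6.47 and 6.22 in LUC cells. Its difference of 0.33 ± 0.12 had an adjusted p of 0.098.

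*S100A14*, an epithelial member, and *S100P*, first described in placenta, stayed near the median of all probe sets in every group. *S100A14* read 5.19, 4.93 and 5.17 in *IGFBP6* knockdown cells and 5.25, 5.34 and 5.23 in LUC cells (adjusted p = 0.27). *S100P* read 4.70, 4.55 and 4.67 in *IGFBP6* knockdown cells and 4.67, 4.62 and 4.85 in LUC cells (adjusted p = 0.76). The 95% interval of the difference was -0.38 to 0.03 for *S100A14* and -0.31 to 0.16 for *S100P*. Of the 10 members, 7 lay over 6 on at least 3 arrays, and *S100A3*, *S100A14* and *S100P* did not. In all, 9 of the 10 members had *IGFBP6* arrays apart from all LUC arrays, 7 lower and 2 higher, beside 37.7% of all genes, with 19.5% lower and 18.2% higher.

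After the knockdown of *ELOVL5*, 0 of the 10 members were called by limma, and 1 had an unadjusted p under 0.05. Over all genes 1.36% were called, 0.69% as lower and 0.672% as higher, so 0 of 10 is no result about these genes. The gene with the unadjusted p was *S100A11*. Its values were 12.33, 12.43 and 12.33 in *ELOVL5* knockdown cells, against 12.77, 12.77 and 13.23 in LUC cells. The arrays did not overlap, and the difference of -0.56 ± 0.13 was 1.47 times (adjusted p = 0.079). Without LUC replicate 3, the high one, it was -0.41 (adjusted p = 0.13).

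*S100A10* read 9.89, 9.88 and 9.87 in *ELOVL5* knockdown cells, against 10.03, 10.00 and 9.98 in LUC cells. All its *ELOVL5* arrays were lower, but the difference was -0.12 ± 0.07 (adjusted p = 0.62). *S100A14* read 5.13, 5.10 and 5.05 in *ELOVL5* knockdown cells, also under its 3 LUC arrays, with a difference of -0.18 (adjusted p = 0.53). These were the 3 members with groups that did not overlap, all lower, beside 23.7% of all genes, with 13.8% lower and 9.91% higher.

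The remaining 7 members overlapped between *ELOVL5* knockdown and LUC cells. *S100A4* read 6.18, 6.56 and 6.46 in *ELOVL5* knockdown cells, within the LUC range of 5.93 to 6.57. *S100A6* read 8.12, 7.97 and 7.88 in *ELOVL5* knockdown cells, against 7.71 to 8.06 in LUC cells. For *S100A2* the *ELOVL5* values were 7.04, 7.01 and 7.15, close to LUC replicates 1 and 2 and above replicate 3 at 6.51. The 7 differences lay between -0.02 for *S100P* and 0.23 for *S100A16*, with adjusted p of 0.45 to 0.98. Their 95% intervals reached at most 0.55, for *S100A2*, and at least -0.32, for *S100A4*. LUC replicate 3 was the lowest LUC array for *S100A2*, *S100A3*, *S100A4*, *S100A6*, *S100A10*, *S100A13*, *S100A14* and *S100A16*. Without it, the differences of *S100A3*, *S100A4*, *S100A6* and *S100A13* turned to between -0.11 and -0.03, that of *S100P* to 0.05, and none was called.

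**Figure D2:**
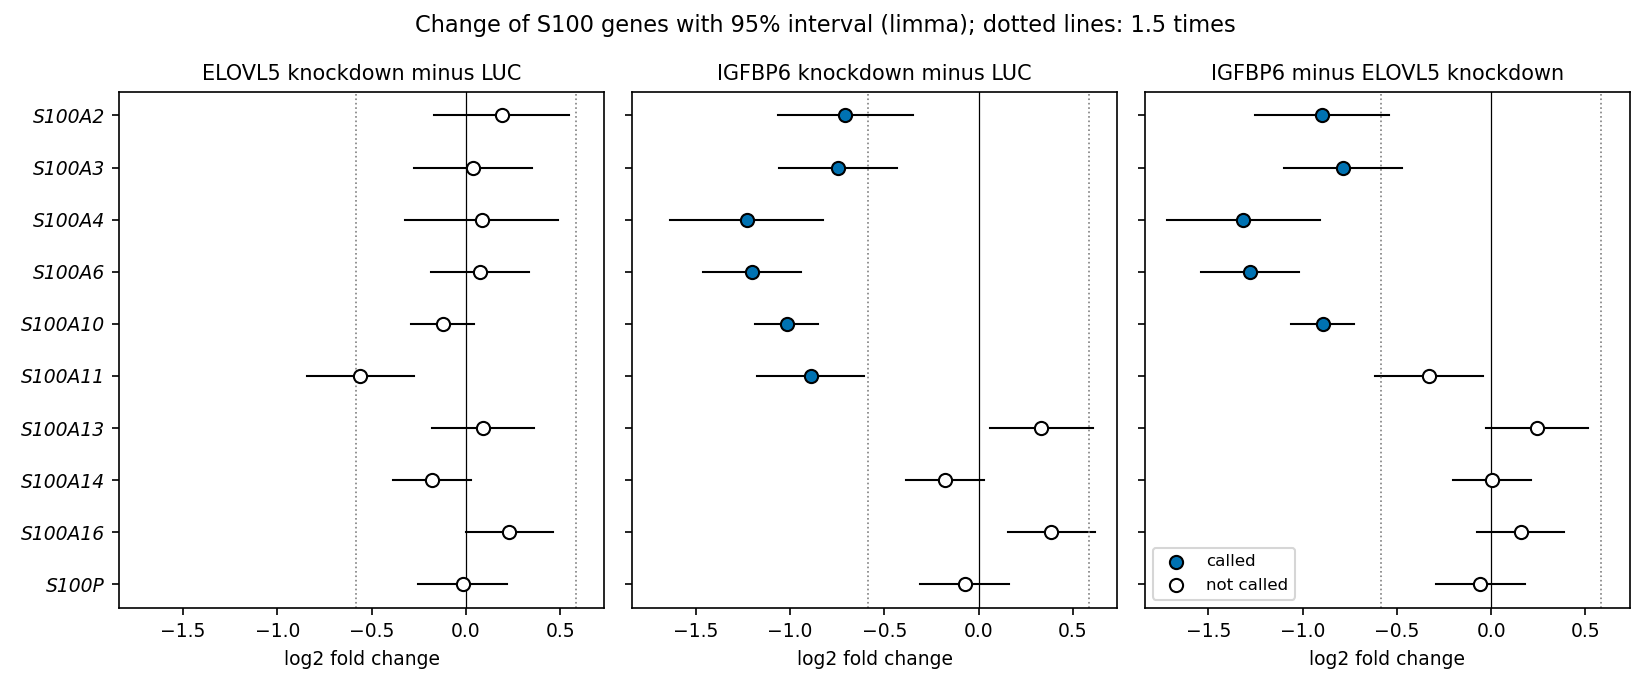
Log2 fold change of each S100 gene (points) with its 95% interval (lines) from limma for *ELOVL5* knockdown minus LUC, *IGFBP6* knockdown minus LUC and *IGFBP6* knockdown minus *ELOVL5* knockdown cells. Filled points were called, and dotted lines mark 1.5 times. The 6 filled points of the middle panel lie between -1.23 and -0.71, the left panel has none, and in the right panel *S100A11* is open at -0.33.

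Both comparisons above used the same 3 LUC arrays, so they are not independent, and the knockdowns were also compared with each other. In *IGFBP6* knockdown cells 5 of the 10 members were lower than in *ELOVL5* knockdown cells and none was higher, beside 13.1% of all genes called, 6.64% lower and 6.5% higher. *S100A4* read 5.21, 4.81 and 5.24 in *IGFBP6* knockdown cells, against 6.18, 6.56 and 6.46 in *ELOVL5* knockdown cells. The difference of -1.31 ± 0.18 was 2.49 times (adjusted p = 7.9e-04). *S100A6* read 6.59, 6.72 and 6.83 in *IGFBP6* knockdown cells, against 8.12, 7.97 and 7.88 in *ELOVL5* knockdown cells, a difference of -1.28 ± 0.12 (adjusted p = 5.6e-05).

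The same comparison gave -0.90 ± 0.16 for *S100A2* (adjusted p = 0.0035), -0.79 ± 0.14 for *S100A3* (adjusted p = 0.0035) and -0.89 ± 0.07 for *S100A10* (adjusted p = 3.2e-05). In each of these 5 genes the *IGFBP6* arrays all lay under the *ELOVL5* arrays. *S100A11* was the exception among the 6 genes that fell against LUC. Its *IGFBP6* arrays, at 11.92 to 12.11, were all under its *ELOVL5* arrays, at 12.33 to 12.43, but the difference of -0.33 ± 0.13 had an adjusted p of 0.13. Its 3 groups thus stood in the order *IGFBP6* knockdown, *ELOVL5* knockdown and LUC, low to high, of which only the first and last were apart by the test. In all, 7 members had groups that did not overlap, 6 lower and 1 higher in *IGFBP6* knockdown cells, beside 39.8% of all genes, with 18.9% lower and 20.9% higher.

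Among the 4 members called in no comparison, the difference between the knockdowns was 0.24 for *S100A13* (95% interval -0.03 to 0.51), 0.16 for *S100A16* (-0.07 to 0.39), 0.00 for *S100A14* (-0.20 to 0.21) and -0.06 for *S100P* (-0.29 to 0.18). Each of these 4 intervals stayed within the fold threshold of 1.5 times in both directions. Over the 10 members the median difference was -0.56, beside 0.02 for all genes.

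The chromosome 1 members fall into a pair of separate places. *S100A10* and *S100A11* stand next to each other at one end, and the rest follow at the other end in the order *S100A6*, *S100A5*, *S100A4*, *S100A3*, *S100A2*, *S100A16*, *S100A14*, *S100A13* and *S100A1*. The array measured 65 genes from *S100A10* to *S100A1*, of which 17 were S100 genes. All 6 S100 genes that fell after the knockdown of *IGFBP6* are on this stretch, which by its bounds holds every member but *S100P*. *S100A6*, *S100A4*, *S100A3* and *S100A2* follow each other with only *S100A5* between them. *S100A5*, which was not called, differed by -0.35 (adjusted p = 0.097) from 4.90 in LUC cells, just under the median of all probe sets. *S100A16*, *S100A14* and *S100A13*, next in order, were not lower by the test.

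Among the 48 other genes of the stretch only *FLG*, filaggrin, was called after either knockdown, and 6 of the 48 lay over 6 on at least 3 arrays. Over all genes 16.3% were called after the knockdown of *IGFBP6* and 1.36% after that of *ELOVL5*. The nearest measured genes outside were *C2CD4D*, *THEM5* and *THEM4* on one side and *CHTOP*, *SNAPIN* and *ILF2* on the other, and none was called. *ILF2* differed by 0.44 (adjusted p = 0.0040) and *SNAPIN* by 0.46 (adjusted p = 0.031) after the knockdown of *IGFBP6*, both upward and under the fold threshold. The gene models of *S100A4* and *S100A5* share 65 bases, and those of *S100A13* and *S100A1*, on opposite strands, share 3606 bases, so their signals may not be fully separate.

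**Figure D3:**
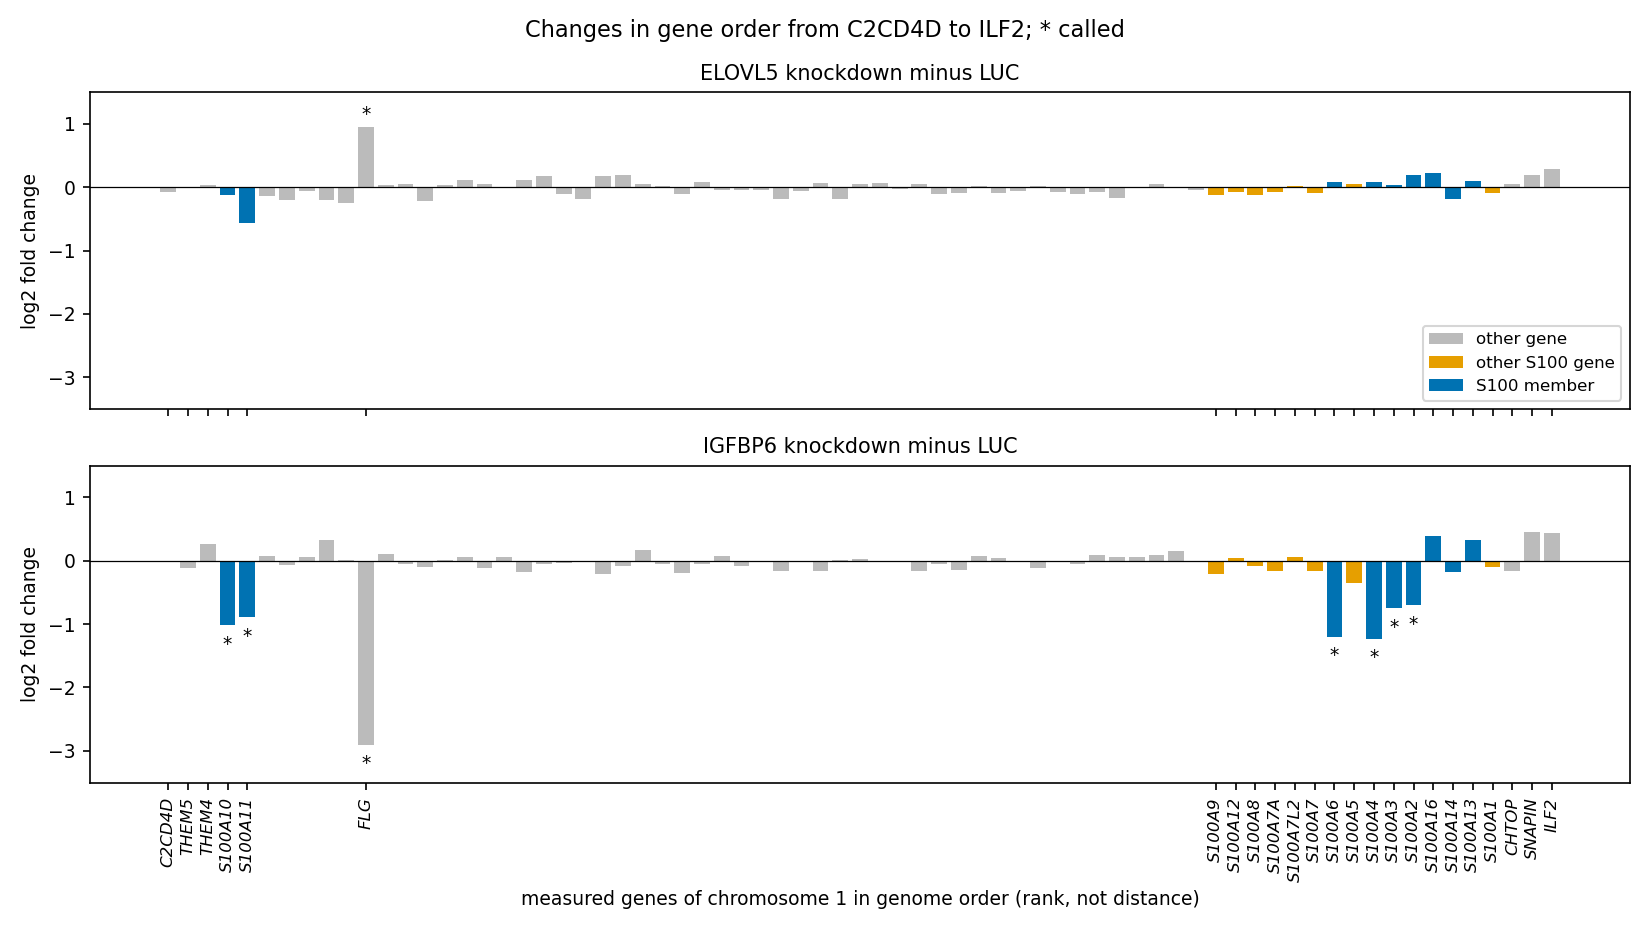
Log2 fold change (vertical axis) of each measured gene from *C2CD4D* to *ILF2* on chromosome 1 in genome order (horizontal axis, rank and not distance), after the knockdown of *ELOVL5* (top) and of *IGFBP6* (bottom), against LUC. Asterisks mark called genes. The 6 blue bars with an asterisk in the lower panel lie between -1.23 and -0.71, and *FLG* reaches 0.95 in the upper and -2.90 in the lower panel.

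Of 18 other S100 family genes, the fused members with an S100 domain included, *FLG* alone was called. That is 1 of 18 in each of the 3 comparisons. Over all genes 16.3% were called after the knockdown of *IGFBP6*, 1.36% after that of *ELOVL5* and 13.1% between the knockdowns. Filaggrin is a structural protein of the skin barrier with an S100 domain at its start. It read 5.55, 5.33 and 5.36 in *IGFBP6* knockdown cells, against 8.43, 8.52 and 7.99 in LUC cells. It fell by 2.90 ± 0.18, or 7.46 times (adjusted p = 2.2e-06), and every *IGFBP6* array was far under every LUC array. In *ELOVL5* knockdown cells it read 9.01, 9.16 and 9.61 and was 0.95 ± 0.18 higher than in LUC cells (adjusted p = 0.034). This second call was lost, leaving 0 of 18, when *ELOVL5* replicate 2 or 3, *IGFBP6* replicate 2 or 3, or any 1 LUC replicate was left out. Between the knockdowns *FLG* differed by -3.85 (adjusted p = 9.0e-07). The others included *S100A8*, *S100A9* and *S100A12*, the S100 genes of myeloid cells. Only 2 of the 18, *FLG* and *S100A9*, lay over 6 on at least 3 arrays. *S100A9* read 5.99, 5.69 and 5.87 in *IGFBP6* knockdown cells and 6.21, 5.96 and 5.99 in LUC cells (adjusted p = 0.31).

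Of the genes of proteins that S100 proteins bind or work with, 31 were listed and 30 measured. Of the 30, 23 lay over 6 on at least 3 arrays, against 11228 of all 22465 genes, so the shares over all genes include more dim ones. After the knockdown of *IGFBP6* 9 of them fell and 5 rose, beside 8.49% and 7.82% of all genes, with a median change of 0.015, beside -0.01 for all genes. The largest changes were in *PLAU*, the urokinase that activates plasminogen, *DLC1*, a gene named for its loss in liver cancer, *TLR4*, the receptor that S100A8 and S100A9 engage, and *TPM1*, tropomyosin. *PLAU* read 12.29, 12.13 and 11.37 in *IGFBP6* knockdown cells, against 10.09, 9.85 and 9.20 in LUC cells. It was the only one of these 4 that rose, by 2.22 ± 0.26 (adjusted p = 1.8e-04). The change was -1.39 in *DLC1* (adjusted p = 9.1e-06), -1.38 in *TLR4* (adjusted p = 2.4e-04) and -1.34 in *TPM1* (adjusted p = 8.5e-06).

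Known partners of the members that fell are given next and were chosen after their values were seen, so they support no direction. *ANXA2*, the annexin that holds S100A10, read 16.31, 16.41 and 16.33 in *IGFBP6* knockdown cells, against 16.81, 16.76 and 16.76 in LUC cells. All its *IGFBP6* arrays were lower, but the difference of -0.43 (adjusted p = 0.0029) was under the fold threshold. *ANXA1*, the partner of S100A11, differed by 0.07 (adjusted p = 0.73), and *CACYBP*, the calcyclin-binding protein that S100A6 holds, by 0.01 (adjusted p = 0.97). Of the other annexins on the list, *ANXA5* fell by 0.76 and was called (adjusted p = 1.0e-04). *ANXA6* differed by 0.52 (adjusted p = 0.0076, under the fold threshold) and *ANXA11* by 0.21 (adjusted p = 0.27). The co-chaperone gene *FKBP4* rose by 1.01 (adjusted p = 0.0019). *MYH9*, the myosin heavy chain that S100A4 binds, fell by 0.85 (adjusted p = 4.5e-04), and *AHNAK*, a large scaffold bound by the S100A10 and annexin A2 complex, fell by 0.65 (adjusted p = 0.0041). Plasminogen activators moved in opposite directions, since *PLAT* fell by 0.67 (adjusted p = 0.024) while *PLAU* rose.

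After the knockdown of *ELOVL5*, 2 of the 30 partner genes rose and 1 fell, beside 0.672% and 0.69% of all genes. *ANXA6*, a calcium-dependent membrane-binding annexin, read 13.25, 13.51 and 13.47 in *ELOVL5* knockdown cells, against 12.38, 12.58 and 12.39 in LUC cells, and rose by 0.96 ± 0.11 (adjusted p = 0.0021). *SYT1*, a calcium sensor of vesicle release, rose by 0.62 (adjusted p = 0.039), and *TLR4* fell by 0.86 (adjusted p = 0.044). The largest difference on the list was that of *PLAU*, at 1.11, which was not called (adjusted p = 0.085). All its *ELOVL5* arrays lay over all its LUC arrays. The count of 3 dropped to 1 without *ELOVL5* replicate 2 or 3, *IGFBP6* replicate 2, or LUC replicate 1 or 2. Between the knockdowns 3 partner genes were higher and 7 lower in *IGFBP6* knockdown cells, beside 6.5% and 6.64% of all genes, led by *DLC1* (-1.21), *PLAU* (1.11), *PLAT* (-1.09) and *IQGAP1* (-0.99), a scaffold of the cell cortex. Without *ELOVL5* replicate 3 or without *IGFBP6* replicate 2, 0 were higher and 6 lower.

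Of 47 other genes for EF-hand calcium sensors, 36 were measured, and 21 of these lay over 6 on at least 3 arrays. None was called higher after the knockdown of *IGFBP6* and 9 were called lower, beside 7.82% and 8.49% of all genes. The median change was -0.115, beside -0.01 for all genes. Just under the fold threshold, *RCN3* was 0.583 higher (adjusted p = 0.0056) and *CETN2* 0.58 higher (adjusted p = 0.0053). *EFHD1* was 0.48 lower (adjusted p = 0.0033) and also under it. *KCNIP3*, which encodes the calcium-regulated repressor DREAM, read 6.76, 6.26 and 6.38 in *IGFBP6* knockdown cells, against 9.73, 9.85 and 10.06 in LUC cells. It fell by 3.41 ± 0.15, or 10.7 times (adjusted p = 2.3e-07). It was followed by *NCS1*, neuronal calcium sensor, with a change of -1.43, *CAPN1*, a subunit of the protease calpain, with -1.26, and *CAPN2*, its relative, with -0.91. After the knockdown of *ELOVL5*, 1 of the 36 rose and none fell, beside 0.672% and 0.69% of all genes.

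That gene was *CALB2*, which encodes the calcium buffer calretinin. It read 6.60, 6.77 and 6.81 in *ELOVL5* knockdown cells, against 5.35, 5.03 and 5.11 in LUC cells, and rose by 1.56 ± 0.12, or 2.96 times (adjusted p = 1.7e-04). In *IGFBP6* knockdown cells it read 4.51, 4.20 and 4.30 and differed from LUC cells by -0.83 (adjusted p = 6.6e-04). These *IGFBP6* values lay under the median of all probe sets and the LUC values just above it, so this fall was between dim values. The 2 knockdowns stood on opposite sides of LUC for *CALB2*, as for *FLG*, and between them *CALB2* differed by -2.39 (adjusted p = 1.4e-06). Of the 36 sensors, 9 were called lower and none higher in *IGFBP6* than in *ELOVL5* knockdown cells, beside 6.64% and 6.5% of all genes. Under the fold threshold, *RCN3* (0.54, adjusted p = 0.011) and *CETN2* (0.40, adjusted p = 0.040) were higher and *CALU* (-0.45, adjusted p = 0.0060) was lower. After *KCNIP3* (-3.35) and *CALB2* the largest differences were in *NCS1* (-1.41) and *HPCAL1* (-1.36), hippocalcin-like 1.

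**Figure D4:**
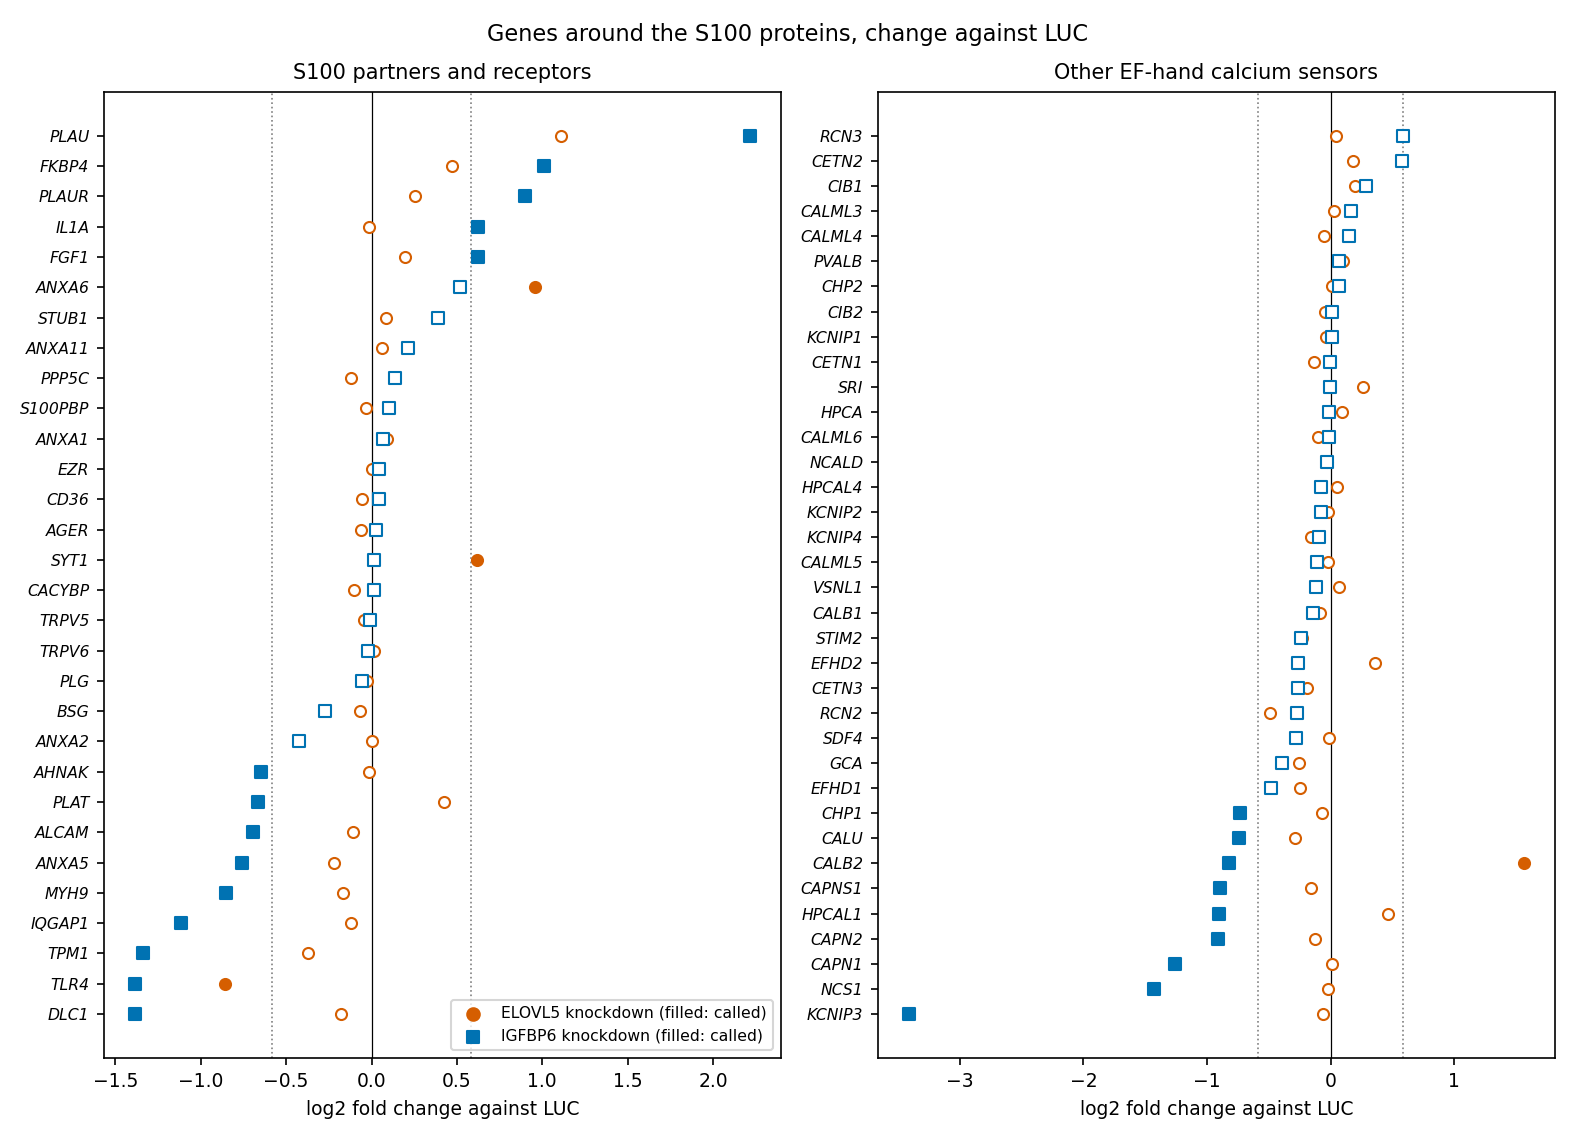
Log2 fold change against LUC (horizontal axis) of S100 partner genes (left) and other EF-hand calcium sensor genes (right), with 1 gene per line. Circles stand for *ELOVL5* knockdown, squares for *IGFBP6* knockdown, filled symbols for called genes and dotted lines for 1.5 times. Filled squares lie on both sides on the left (5 right, 9 left) and only on the lower side on the right, down to -3.41 for *KCNIP3*, while *CALB2* has its circle at 1.56 and its square at -0.83.

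The 6 members that fell were also set beside all 10849 other genes with a mean of at least 6, by Pearson's r of the log2 values over the 9 arrays, as a description only. The genes most like *S100A4* were *TLR6* (0.989), *ZCCHC24* (0.988) and *LPCAT2* (0.984), and those most like *S100A6* were *ADNP* (0.991), *DTNBP1* (0.988) and *IGFBP7* (0.987). For *S100A10* they were *ZNF398* (0.999), *SERINC2* (0.997) and *PLK2* (0.997), and for *S100A11* *PTGER4* (0.985), *GNAI1* (0.982) and *LPGAT1* (0.981). For *S100A3* they were *TRIM26* (0.996), *SH3TC2* (0.981) and *HS3ST1* (0.975), and for *S100A2* *BHLHE41* (0.968), *VIPR1* (0.967) and *LIPG* (0.966). The points share the arrays and the 3 groups, so any gene that differs in *IGFBP6* knockdown cells alone scores high.

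With the group means taken away and all 9 arrays pooled, *S100A11* ran against the other 5 genes that fell. Over the 9 arrays its deviations correlated with theirs at -0.950 to -0.509, while those of the other 5 correlated with each other at 0.294 to 0.779. LUC replicate 3, the highest LUC array for *S100A11* and the lowest for the other 5, is 1 of these 9 points. How far the correlations rest on it was not tested. The pattern did not hold for every gene inside each group. From *IGFBP6* replicate 1 to 3, *S100A6* (6.59, 6.72 and 6.83) and *S100A11* (11.92, 12.07 and 12.11) rose together. *S100A2*, *S100A3* and *S100A10* were highest at *IGFBP6* replicate 1, where *S100A11* was lowest. Without LUC replicate 3 the changes after the knockdown of *IGFBP6* were -0.89 for *S100A2*, -0.90 for *S100A3*, -1.42 for *S100A4*, -1.31 for *S100A6*, -1.03 for *S100A10* and -0.74 for *S100A11*, and all 6 were called.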

How the data were processed

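RNA of 9 samples (3 per culture) was hybridised to Human Transcriptome Array 2.0 arrays. The deposited log2 intensities were made by the authors with robust multi-array average (RMA) in Transcriptome Analysis Console 4.0.0.25, and the scanner files were not used here. A protocol label mentions tumour tissue, but the samples are a cell line. The table held 67528 transcript clusters, of which 23781 had 1 symbol, for 22465 genes. Where a gene had several, the one with the highest mean was taken. As arrays, their number limits the precision.

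All 9 arrays were fitted in 1 model with limma 3.58.1 (R 4.3.3), tested on simulated data. Calls needed an adjusted p under 0.05 and 1.5 times. The methods' analysis of variance was replaced by this moderated fit. An exact permutation test of 3 against 3 cannot go below p = 0.1 and was not used. Lists are given by counts and medians, without a set test. Named genes were all members, the called other S100 family genes, up to 4 called genes with the largest change per comparison from the partner and EF-hand lists, the 3 most similar genes per called member and the 3 measured genes on either side of the chromosome 1 stretch. Outside this rule, *S100A5*, *S100A9*, partners of members (*ANXA1*, *ANXA2*, *ANXA5*, *ANXA6*, *ANXA11*, *CACYBP*, *MYH9*, *AHNAK*, *PLAT*, *FKBP4*) and markers were named after their values were seen. So were the EF-hand sensors *RCN3*, *CETN2*, *EFHD1* and *CALU*. Members and lists were chosen with earlier results of these data known. Gene order and promoters came from RefSeq. The array table names no genome build, so no coordinates are given for its probe sets. Alternatives were the variance moderation, the samples fitted, a replicate block, a filter on dim probe sets (log2 of 6 on 3 arrays), median centring, quantile normalization, weights for arrays, the scope of the adjustment, the fold threshold, the mean of a gene's clusters and leaving out each array. Figures were drawn with matplotlib 3.10.9.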

Additional observations from a re-analysis of the deposited data

Results flagged for a closer look

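The effects of the knockdowns on 5 S100 genes differed from each other by the direct comparison, which is the effect of the *IGFBP6* knockdown minus that of the *ELOVL5* knockdown on the log2 scale. The difference was -1.31 for *S100A4*, -1.28 for *S100A6*, -0.90 for *S100A2*, -0.89 for *S100A10* and -0.79 for *S100A3*. In each of the 5, all 3 *IGFBP6* arrays lay under all 3 *ELOVL5* arrays. Groups of 3 are too small for a search for single arrays that stand apart.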

How the results depend on the processing

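The 11 calls on S100 members gave 196 values under the alternatives, of which 195 were still called in the same direction, the fold thresholds aside. The exception was *S100A2* after the knockdown of *IGFBP6* without moderation (adjusted p = 0.059). The filter on dim probe sets gave no value for *S100A3*, *S100A14* and *S100P*, and 5 members were then called after the knockdown of *IGFBP6* and 4 between the knockdowns. No value of a member that was not called became called in these settings. With a fold of at least 2, 3 members were called after the knockdown of *IGFBP6* and 2 between the knockdowns. Partner genes called were then 6 after the knockdown of *IGFBP6*, 3 between the knockdowns and 0 after the knockdown of *ELOVL5*, and EF-hand sensors 3 and 5 for the first pair of comparisons. Without a fold threshold, 7 members and 2 other S100 family genes were called after the knockdown of *IGFBP6*.

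After the knockdown of *ELOVL5* the single other S100 family gene became 0 without moderation, with only the 2 groups compared, with the replicate block and with a fold of at least 2, and was 0 to 1 with each array left out. The 3 partner genes became 1 without moderation, with only the 2 groups, with quantile normalization and with median centring, and 1 to 3 with each array left out. Between the knockdowns the 10 partner genes became 6 to 11.

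Small differences that were not called changed sign. That of *S100P* after the knockdown of *ELOVL5* was 0.0104 with quantile normalization and 0.0033 with median centring, that of *S100A14* between the knockdowns was -0.0085 and -0.02 in these settings, and that of *S100P* between the knockdowns was 0.011 with array weights. With each array left out, the ranges after the knockdown of *ELOVL5* were -0.11 to 0.18 for *S100A3*, -0.11 to 0.21 for *S100A4*, -0.03 to 0.145 for *S100A6*, -0.035 to 0.215 for *S100A13* and -0.083 to 0.067 for *S100P*. Between the knockdowns they were -0.043 to 0.087 for *S100A14* and -0.14 to 0.01 for *S100P*. The cause was not tested.

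Whether the replicate numbers pair the samples is not known. Of 9 same-numbered pairs, 4 had deviations that correlated over 0.1 (-0.0564 to 0.333). Pairs with unlike numbers ran from -0.27 to 0.188, so the correlations do not settle it. With the numbers as a replicate block, 6 members were called after the knockdown of *IGFBP6*, 5 between the knockdowns and 0 after the knockdown of *ELOVL5*. The partner genes called after the knockdown of *ELOVL5* were then 3 higher and 0 lower, so the call on *TLR4* was lost. Background signal was not measured, so how far dim probe sets understate a change is unknown.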
